A study of Mus musculus with 8 samples.

Results

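The 10 genes described here encode heat shock proteins, the chaperones that fold and refold other proteins in the cytosol and the mitochondria. They were taken by symbol (Hspa1a, Hspa1b, Hspa1l, Hspa8, Dnajb1, Hsph1, Hsp90aa1, Hsp90ab1, Hspd1 and Hspe1), and all 10 were found among the 24902 symbols of the count matrix. All 10 also had a value in every library and passed edgeR's filter on low counts, which left 13173 genes to test. The study asks how the arginine methyltransferase PRMT5 acts in chronic lymphocytic leukemia, a cancer of mature B cells. Bulk RNA sequencing was done on B cells taken from the spleens of 8 mice when they met early removal criteria (ERC), the fixed signs of illness at which a mouse is euthanized. The genotypes were Eµ-PRMT5 (4 mice, transgene Eµ-hPRMT5), Eµ-PRMT5/TCL1 (3 mice, Eµ-hPRMT5/hTCL1) and Eµ-TCL1 (1 mouse, Eµ-hTCL1), each labelled as strain C57BL/6N. In the PRMT5 transgene a mouse VH promoter and the IgH-µ enhancer drive human PRMT5 in B lineage cells, the TCL1 transgene is the established Eµ-driven oncogene, and the double transgenic mice come from a cross of the 2 lines. The labels give no ages, no wild-type mice are in this series, and the Eµ-TCL1 group has no replicates.

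The libraries held 5484833, 6471716, 3987989 and 10252426 counts in Eµ-PRMT5 mice 1 to 4. The Eµ-PRMT5/TCL1 libraries held 6232700, 7290268 and 6686631 counts in mice 1 to 3, and the Eµ-TCL1 library was the smallest, at 3356297. That library also had the most symbols above 0 (20303), the lowest share of counts in ribosomal protein genes and the lowest share in its 100 most abundant genes. Values are CPM, counts scaled for library size and by TMM, on which 1 count stands for between 0.115 CPM (Eµ-PRMT5 mouse 4) and 0.270 CPM (the Eµ-TCL1 mouse). The 11 B cell markers examined, among them Cd79a and Pax5, were above 0 in each of the 8 libraries. This does not measure B cell purity. Neutrophil granule genes summed to 9462 CPM in Eµ-PRMT5/TCL1 mouse 1 and macrophage markers to 7413 CPM. B cell markers there summed to 3503 CPM. In the same order the sums were 5675, 3834 and 3151 CPM for mouse 4 of Eµ-PRMT5. Mouse 2 of Eµ-PRMT5/TCL1 had 5299.7, 2799 and 5020.5 CPM. In every other mouse B cell markers had the highest of these sums. Sums over different genes give no shares of cells.

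As background, HSP70 proteins bind unfolded stretches of other proteins in a cycle driven by ATP, J-domain proteins bring them their clients, and HSP110 proteins reset the cycle by exchanging the nucleotide. HSP90 acts later on partly folded clients, many of them kinases and transcription factors, while HSP60 and its lid HSP10 form a folding chamber in mitochondria. Under stress the factor HSF1 binds inverted repeats of the letters GAA, called heat shock elements, and switches on the inducible genes of the family; in B cell cancers HSP90 is known for keeping signaling kinases stable.

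The inducible HSP70 genes Hspa1a and Hspa1b spanned 18.0-fold and 30.1-fold over the 8 mice, wider than the other members with counts above 0 in every mouse. Hspa1a measured 65.4, 86.0, 39.0 and 8.07 CPM in Eµ-PRMT5 mice 1 to 4, 145 CPM, 29.7 CPM and 27.05 CPM in Eµ-PRMT5/TCL1 mice 1 to 3, and 10.003 CPM in the Eµ-TCL1 mouse. Hspa1b, which encodes nearly the same protein, measured 62.7, 101, 43.1 and 5.88 CPM in Eµ-PRMT5 mice, against 177, 66.1 and 49.6 CPM in Eµ-PRMT5/TCL1 mice, with 21.6 CPM in the Eµ-TCL1 mouse. For both genes Eµ-PRMT5/TCL1 mouse 1 was the highest and Eµ-PRMT5 mouse 4 the lowest of the 8, so the extremes lay within the replicated genotypes and those groups overlapped. The Eµ-TCL1 mouse was next to the lowest for both, above Eµ-PRMT5 mouse 4 and below the other 6. Group means were 49.6 ± 33.7 CPM (SD, n = 4) and 67.3 ± 67.4 CPM (SD, n = 3) for Hspa1a, and 53.2 ± 39.7 and 97.6 ± 69.3 CPM for Hspa1b.

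Of the 50-base words in the exons of Hspa1a, 58.8% also occur in Hspa1b, and 62.3% in the other direction, and how reads that match both were assigned is not stated. The summed CPM of the pair does not depend on that assignment between them. It was 128, 187, 82.1 and 14.0 CPM in Eµ-PRMT5 mice, against 322.2, 95.8 and 76.7 CPM in Eµ-PRMT5/TCL1 mice, with 31.6 CPM in the Eµ-TCL1 mouse. The sum spanned 23.1-fold over the 8 mice, and 13.4-fold over the Eµ-PRMT5 mice alone. The ratio of Hspa1b to Hspa1a, read only between mice, ran from 0.729 (Eµ-PRMT5 mouse 4) to 2.22 (Eµ-PRMT5/TCL1 mouse 2), and was 2.16 in the Eµ-TCL1 mouse.

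**Figure D1:**
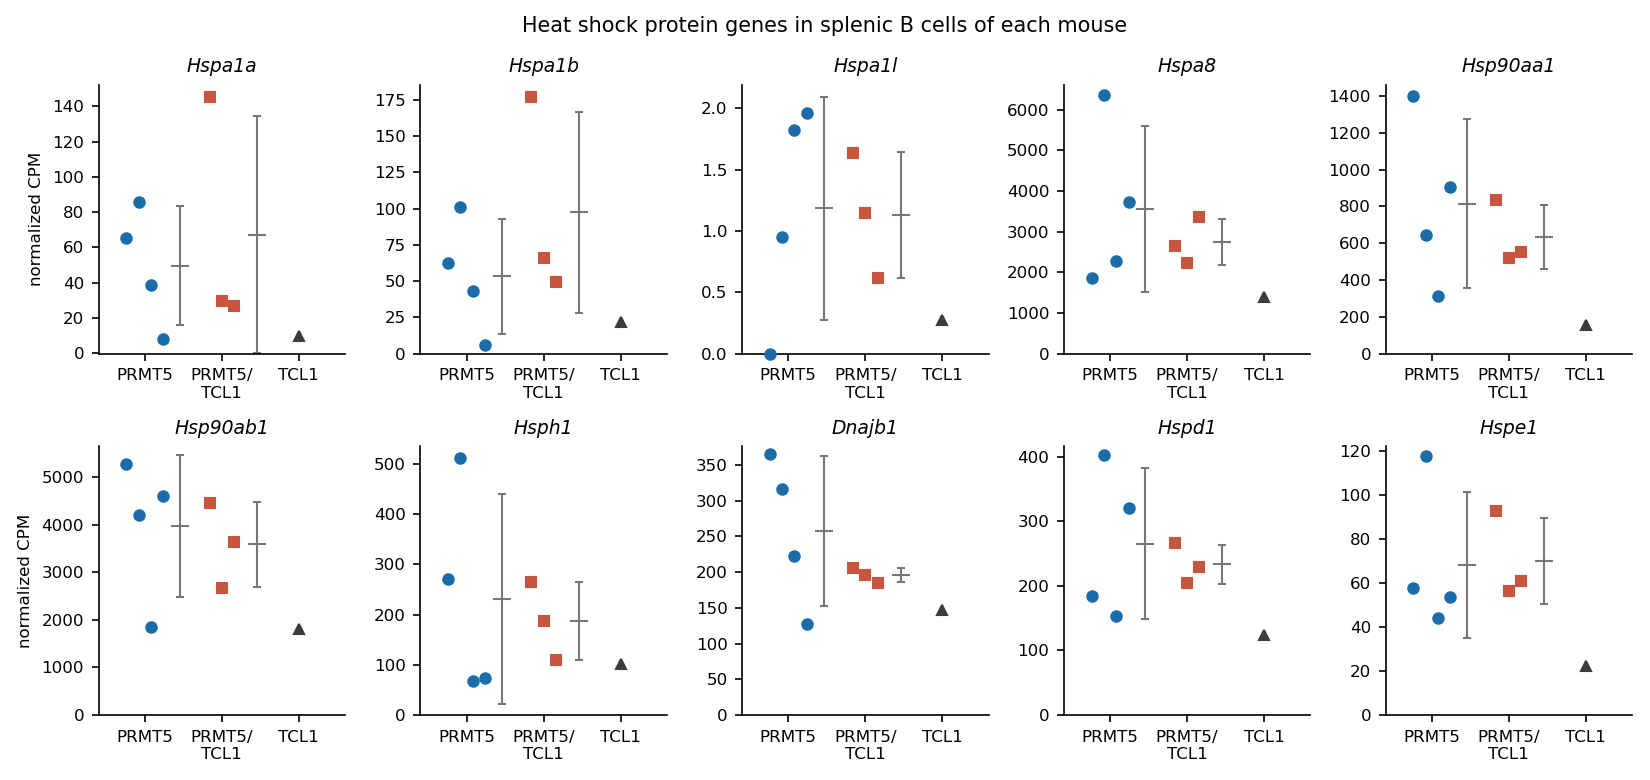
Normalized CPM of each of the 10 genes (vertical axes, from 0) in each mouse by genotype (horizontal axes); circles are Eµ-PRMT5 mice, squares Eµ-PRMT5/TCL1 mice and the triangle the Eµ-TCL1 mouse, and grey bars are means ± SD of the replicated groups. The replicated groups overlap for each gene, and the Eµ-TCL1 mouse lies below all 3 Eµ-PRMT5/TCL1 mice in each panel, for Hspa1l on too few counts to tell them apart.

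Hspa1a and Hspa1b lie on the minus strand of chromosome 17 (GRCm38), at 34969190 to 34972156 and 34956436 to 34959238, with 12918 bases between their starts. The letters just before their starts are printed because the upstream windows are nearly the same and the same mice were highest and lowest for both genes. The part of these letters, or of reads that match both genes, in the latter was not tested. They come from RefSeq, build GRCm38.p6, for chr17:34972157-34972406 (minus strand) and chr17:34959239-34959488 (minus strand), 250 bases each, written 5′ to 3′. Capitals mark a match to GAANNTTC, a pair of inverted GAA units as in a heat shock element.
Hspa1a: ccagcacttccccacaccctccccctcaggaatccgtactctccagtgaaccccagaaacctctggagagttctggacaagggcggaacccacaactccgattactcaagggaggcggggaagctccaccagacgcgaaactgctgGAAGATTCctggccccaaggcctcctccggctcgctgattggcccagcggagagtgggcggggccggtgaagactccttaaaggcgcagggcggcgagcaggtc
Hspa1b: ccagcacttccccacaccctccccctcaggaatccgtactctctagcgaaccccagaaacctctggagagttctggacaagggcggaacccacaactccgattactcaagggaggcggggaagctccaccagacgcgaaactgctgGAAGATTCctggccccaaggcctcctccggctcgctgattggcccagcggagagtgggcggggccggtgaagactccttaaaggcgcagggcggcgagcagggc
The windows share 247 of 250 bases, and counted from 1 at the 5′ end the differences from Hspa1a to Hspa1b are C44T, T47C and T249G. The match begins 104 bases before the start in both genes. Motifs searched were the pairs TTCNNGAA and GAANNTTC and the forms with 3 units, TTCNNGAANNTTC and GAANNTTCNNGAA, on both strands; each form with 3 units contains both pairs. In windows running from 250 bases before to 50 after the start, either pair was in 15.1% of 32851 RefSeq promoters, and a form with 3 units in 0.603%. Promoters of 7 of the 10 genes were in the table, of which 5 held a pair and 3 of these held a form with 3 units. Those counts are of genes with a match at any listed start, while the percentages are of listed promoters. The windows of Hspa1a and Hspa1b are nearly the same and Hspd1 and Hspe1 share 1 run, so the matches are not independent. The 3 genes without an entry were Hspa8, Hsp90aa1 and Hsp90ab1. A match describes the letters only and says nothing of binding.

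Hspa1l, an HSP70 gene known mainly from the testis, starts 547 bases from the start of Hspa1a on the other strand of chromosome 17 (34972703 to 34979285). It had 0, 6, 8 and 17 counts in Eµ-PRMT5 mice 1 to 4, 10, 8 and 4 counts in Eµ-PRMT5/TCL1 mice 1 to 3, and 1 count in the Eµ-TCL1 mouse. A count of 0 in Eµ-PRMT5 mouse 1 allows up to 0.609 CPM (3 counts), and such limits cover counting error only. An antisense gene, Gm10501, covers 71.9% of its exon bases on the other strand, and whether counting was by strand is not stated. No difference between genotypes was detectable for Hspa1l at this depth. None of the searched motifs was in its promoter window.

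Hspa8 encodes HSC70, the HSP70 protein made in unstressed cells (chromosome 9, plus strand, 40800984 to 40810087). It measured 1869.8, 6376, 2269 and 3737 CPM in Eµ-PRMT5 mice, against 2637, 2239 and 3355 CPM in Eµ-PRMT5/TCL1 mice, with 1396 CPM in the Eµ-TCL1 mouse. Eµ-PRMT5 mouse 2 was the highest and the Eµ-TCL1 mouse the lowest, and the Eµ-PRMT5/TCL1 mice fell inside the range of Eµ-PRMT5 mice. Its means were 3563 ± 2040.2 CPM (SD, n = 4) in Eµ-PRMT5 and 2744 ± 565 CPM (SD, n = 3) in Eµ-PRMT5/TCL1. Hspa8 did not follow the inducible pair. The ratio of Hspa8 to the summed pair ran from 8.18 to 44.1 in 7 mice, with 268 in Eµ-PRMT5 mouse 4. Of 4 processed pseudogenes that share at least 10% of the 50-base words of Hspa8, Gm15459 shares the most, at 34.6%.

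Dnajb1 is the HSP40 that stimulates the ATPase of HSP70 (chromosome 8, plus strand, 83608193 to 83612653). It measured 365, 316.8, 222 and 128 CPM in Eµ-PRMT5 mice, against 205, 196 and 185 CPM in Eµ-PRMT5/TCL1 mice, with 147 CPM in the Eµ-TCL1 mouse. The Eµ-PRMT5/TCL1 mice lay close together, at 196 ± 9.91 CPM (SD, n = 3), inside a wide range of Eµ-PRMT5 mice, at 258 ± 105 CPM (SD, n = 4). Eµ-PRMT5 mouse 4 was the lowest of the 8, and the other Eµ-PRMT5 mice lay above all 3 Eµ-PRMT5/TCL1 mice. No share of all genes without that mouse is given, so this only describes Dnajb1. None of the motifs was in its promoter windows.

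Hsph1 encodes HSP105, an HSP110 protein (chromosome 5, minus strand, 149614287 to 149636376). It measured 270.1, 511, 67.9 and 73.0 CPM in Eµ-PRMT5 mice, against 265, 187 and 109 CPM in Eµ-PRMT5/TCL1 mice, with 102 CPM in the Eµ-TCL1 mouse. Eµ-PRMT5 mice 1 and 2 were above every Eµ-PRMT5/TCL1 mouse, and Eµ-PRMT5 mice 3 and 4 were below all of them and below the Eµ-TCL1 mouse. With a coefficient of variation of 90.8% in Eµ-PRMT5, Hsph1 was the most variable of the 10 in that group, and its value was 41.7% in Eµ-PRMT5/TCL1. Its promoter holds a TTCNNGAA pair, shown with its surroundings from RefSeq, build GRCm38.p6, chr5:149636351-149636380 (minus strand), 5′ to 3′ with the pair in capitals; it begins 33 or 54 bases before the RefSeq start, by which of 2 listed starts is used, and is inside the gene as annotated above. A form with 3 units, TTCNNGAANNTTC, begins 37 or 16 bases after these starts in the same order and is not printed.
Hsph1: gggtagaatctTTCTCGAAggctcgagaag

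**Figure D2:**
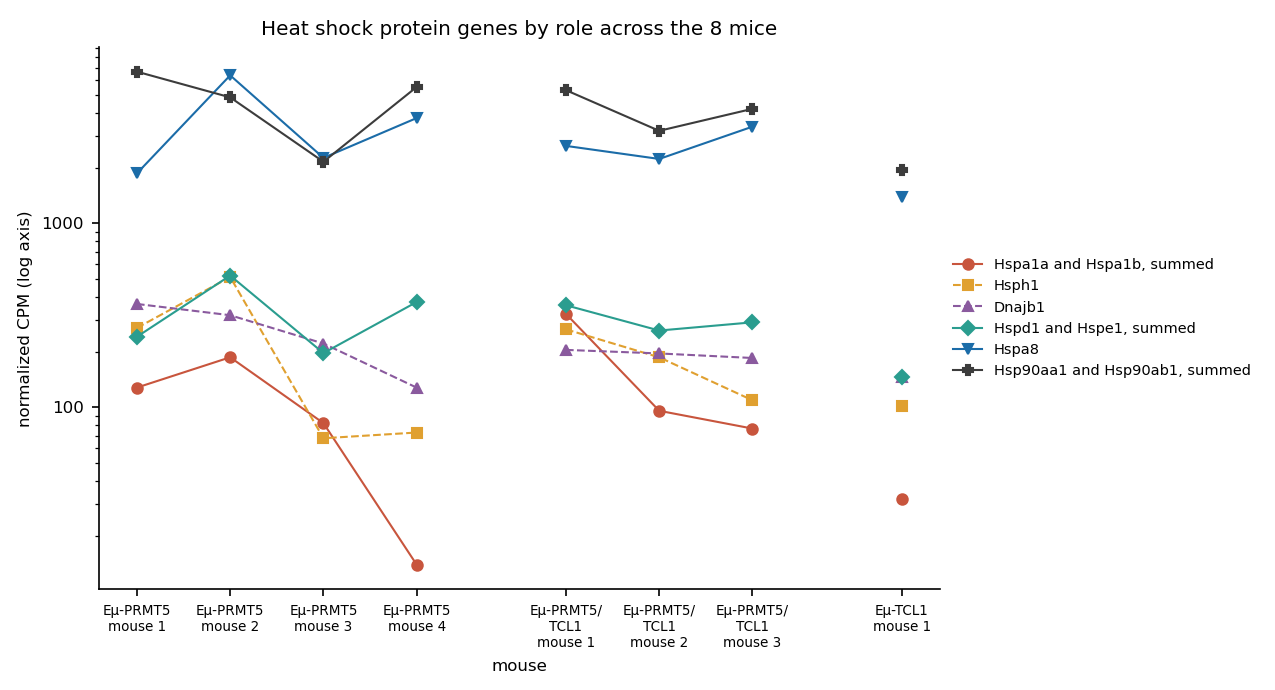
Normalized CPM (vertical log axis) of genes grouped by role in each of the 8 mice (horizontal axis); points are mice and lines only join the points of a genotype, in no order of time or dose. In Eµ-PRMT5 mouse 4 the summed inducible pair is at 14.0 CPM, its lowest, while Hspa8 and the summed HSP90 genes are at 3737 and 5515 CPM; genes are not scaled for length.

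The cytosolic HSP90 genes also differed from mouse to mouse. Hsp90aa1, the inducible form (chromosome 12, minus strand, 110690605 to 110702728), measured 1401, 644, 314 and 905 CPM in Eµ-PRMT5 mice, against 834, 517 and 551 CPM in Eµ-PRMT5/TCL1 mice, with 154 CPM in the Eµ-TCL1 mouse. The Eµ-TCL1 mouse was the lowest and Eµ-PRMT5 mouse 1 the highest, and the replicated groups, at 816 ± 459 (SD, n = 4) and 634 ± 174 CPM (SD, n = 3), overlapped. Hsp90ab1, the constitutive form (chromosome 17, minus strand, 45567775 to 45573271), measured 5276, 4196, 1848 and 4609.8 CPM in Eµ-PRMT5 mice, against 4462, 2667 and 3643 CPM in Eµ-PRMT5/TCL1 mice, with 1799.5 CPM in the Eµ-TCL1 mouse. Here the Eµ-TCL1 mouse was lowest by a small margin under Eµ-PRMT5 mouse 3, and the group means were 3982 ± 1491 and 3591 ± 899 CPM. The ratio of Hsp90ab1 to Hsp90aa1 was between 3.77 and 6.61 in the 7 mice with the PRMT5 transgene and 11.7 in the Eµ-TCL1 mouse. Of the 50-base words of Hsp90aa1, 41.8% occur in the pseudogene Gm12346, and no other gene shares 10% of those of Hsp90ab1.

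Hspd1 (HSP60, chromosome 1, minus strand, 55077835 to 55088243) and Hspe1 (HSP10, plus strand, 55088132 to 55091307) encode the mitochondrial folding chamber and overlap at their starts, which lie 111 bases apart on opposite strands. Hspd1 measured 184, 403, 153 and 320.4 CPM in Eµ-PRMT5 mice, against 266, 205 and 229 CPM in Eµ-PRMT5/TCL1 mice, with 124 CPM in the Eµ-TCL1 mouse. Hspe1 measured 57.6, 117, 44.0 and 53.5 CPM in Eµ-PRMT5 mice, against 92.6, 56.5 and 61.0 CPM in Eµ-PRMT5/TCL1 mice, with 22.4 CPM in the Eµ-TCL1 mouse. For both genes Eµ-PRMT5 mouse 2 was the highest and the Eµ-TCL1 mouse the lowest, with the Eµ-PRMT5/TCL1 mice inside the span of Eµ-PRMT5 mice. Means were 265 ± 117 (SD, n = 4) and 233 ± 30.9 CPM (SD, n = 3) for Hspd1, and 68.2 ± 33.4 and 70.0 ± 19.7 CPM for Hspe1. The ratio of Hspd1 to Hspe1 ran from 2.87 in Eµ-PRMT5/TCL1 mouse 1 to 5.99 in Eµ-PRMT5 mouse 4, with 5.52 in the Eµ-TCL1 mouse. Their annotated exons overlap by 112 bases on opposite strands, and 38.0% of the 50-base words of Hspd1 occur in the pseudogene Hspd1-ps3. For Hspe1 the protein-coding AC117239.2 shares 17.9%.

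Near these starts the RefSeq letters hold a run of 4 alternating units, printed because it lies in the windows of both. It is inside Hspd1 as annotated above, whose outer start is 55088243, and before the start of Hspe1. It is shown from build GRCm38.p6, chr1:55088053-55088082, on the plus strand for Hspe1 and on the minus strand for Hspd1, 5′ to 3′ with the run in capitals. The run begins 89 bases before the Hspe1 start at 55088148 and 144 bases before the inner of the listed Hspd1 starts, at 55087932.
Hspe1: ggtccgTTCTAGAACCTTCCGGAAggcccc
Hspd1: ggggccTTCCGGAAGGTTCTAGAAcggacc

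Scaled for the length of annotated exons, the mean over the 8 mice was 1188 CPM per kilobase for Hsp90ab1, 694 for Hspa8, 169 for Hsp90aa1, 89.2 for Hspd1, 68.9 for Dnajb1, 42.8 for Hspe1, 27.3 for Hsph1, 23.5 for Hspa1b, 17.3 for Hspa1a and 0.425 for Hspa1l. Neighbours in this order of levels kept it in all 8 mice for Hspa8 over Hsp90aa1, Dnajb1 over Hspe1, Hspe1 over Hsph1 and Hspa1a over Hspa1l. Hsph1 was above Hspa1b in only 5 of 8 mice and Hspd1 above Dnajb1 in 6 of 8, so these neighbours did not differ beyond their spread. The order held in 7 of 8 mice for the remaining 3 neighbouring pairs. Among these, Hspa1b over Hspa1a depends on how reads that match both were assigned, so it is not read as an order of levels.

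Added up, the 10 genes came to 9552, 12753, 5002 and 9842 CPM in Eµ-PRMT5 mice, against 9087, 6165 and 8211 CPM in Eµ-PRMT5/TCL1 mice, with 3776 CPM in the Eµ-TCL1 mouse. The Eµ-TCL1 mouse had the lowest total, and Eµ-PRMT5 mouse 3 was closest to it. By gene, Eµ-PRMT5 mouse 2 was the highest of the 8 for Hspa8, Hsph1, Hspd1 and Hspe1, and Eµ-PRMT5 mouse 1 for Hsp90aa1, Hsp90ab1 and Dnajb1. The title of the former of these mice carries an ID that the study also gives to a founder, and the mouse was kept in its labelled group. Eµ-PRMT5/TCL1 mouse 1 was the highest for Hspa1a and Hspa1b, so no single mouse was high for the whole family. The Eµ-TCL1 mouse was the lowest of the 8 for 5 of the 10 genes, against 14.2% of all tested genes. In bulk RNA, fewer cells of a type and less RNA per cell cannot be told apart, which holds for each difference given here.

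The comparison of Eµ-PRMT5/TCL1 with Eµ-PRMT5 mice asks what the TCL1 transgene adds to PRMT5. The 10 genes did not separate these genotypes. Differences ran in both directions, from a log2 fold change of -0.40 for Dnajb1 to 0.88 for Hspa1b. With an adjusted p below 0.05 and more than a 4-fold change required, edgeR's quasi-likelihood test with Benjamini-Hochberg adjustment called 0 of the 10 genes, and 0.0% of the 13173 genes tested. At an unadjusted p under 0.05 the counts were also 0 of 10 with edgeR and with DESeq2, where edgeR gave 2.17% of all genes. For 0 of the 10 were the groups free of overlap, against 2.95% of all genes. The median log2 fold change of the 10 was -0.17, and that of all tested genes -0.09.

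The inducible pair had the largest differences above 0 in this comparison. Hspa1b gave a log2 fold change of 0.88 (SE 0.70, unadjusted p = 0.234 by the quasi-likelihood test of edgeR) and Hspa1a 0.44 (SE 0.72). Summed, the pair gave 0.68 (SE 0.69). The value for Hspa1a rested on Eµ-PRMT5/TCL1 mouse 1, without which it was -0.80, and that for Hspa1b was then 0.12. Hspe1 gave 0.04 (SE 0.40). The others were not above 0, at -0.09 for Hspa1l, -0.15 for Hsp90ab1 (SE 0.47), -0.18 for Hspd1 (SE 0.39), -0.30 for Hsph1 (SE 0.64), -0.36 for Hsp90aa1 (SE 0.48), -0.38 for Hspa8 (SE 0.50) and -0.40 for Dnajb1 (SE 0.38, unadjusted p = 0.320 from edgeR). Only Hspa1b and Dnajb1 kept their sign over all 17 alternative fits, of which 2 are the same fit here (only these groups, and no Eµ-TCL1 mouse), and with a mouse left out they ran from 0.12 to 1.395 (the latter without Eµ-PRMT5 mouse 2) and from -0.62 to -0.16 (with Eµ-PRMT5 mouse 4, or else mouse 1, left out). Without Eµ-PRMT5 mouse 2 the values were 0.06 for Hspa8, 0.45 for Hsph1 and 0.09 for Hspd1. Leaving out Eµ-PRMT5 mouse 1 gave 0.04 for Hsp90aa1, 0.02 for Hsp90ab1 and -0.02 for Hspe1.

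**Figure D3:**
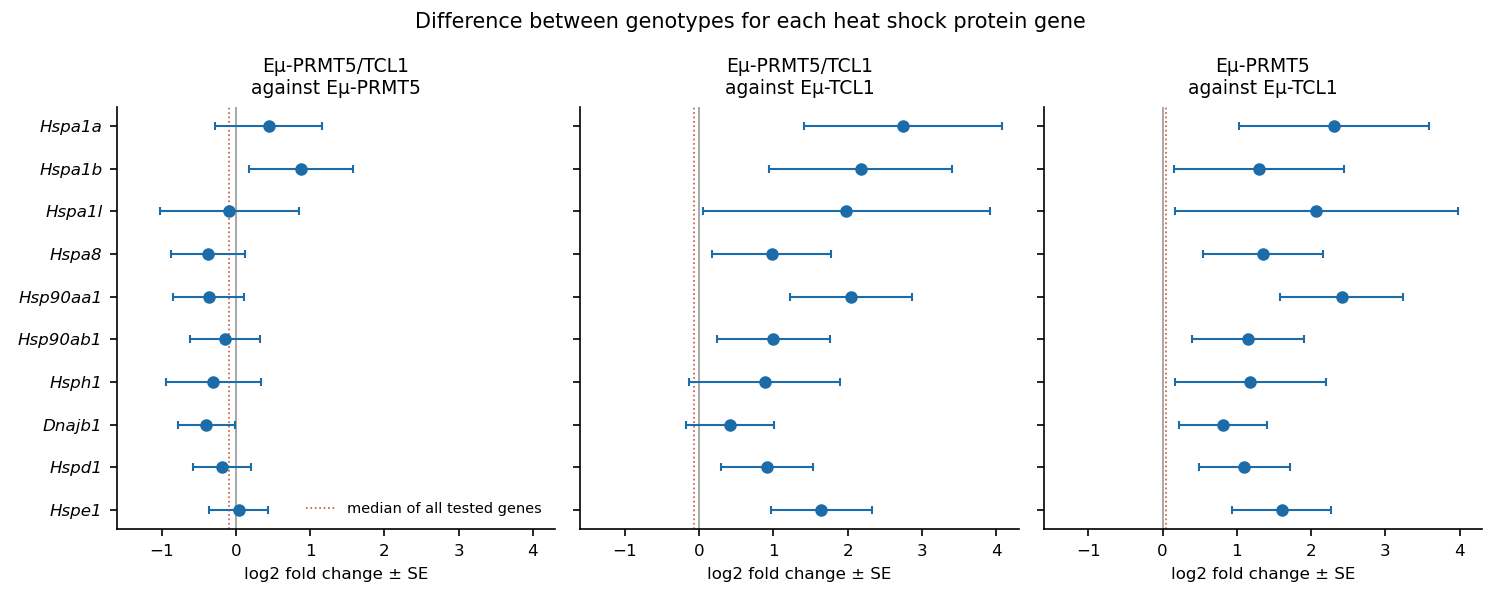
Log2 fold change from edgeR ± SE (horizontal axes) of each of the 10 genes (vertical axis) in the 3 comparisons. The SE is derived from the F statistic of edgeR's test, and dotted lines are medians of all 13173 tested genes. The genes lie on both sides of 0 in the left panel, from -0.40 to 0.88, and above 0 in the others, which share the 1 Eµ-TCL1 mouse.

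The comparison of Eµ-PRMT5/TCL1 mice with the Eµ-TCL1 mouse asks what PRMT5 adds to TCL1, but with 1 Eµ-TCL1 mouse, assumed to vary like the mice of the other groups, it can only ask whether this mouse stands apart. By value it lay below all 3 Eµ-PRMT5/TCL1 mice for 10 of the 10 genes, where this held for 27.6% of all tested genes. For Hspa1l this rests on 1 count against 4, 8 and 10 and does not tell the mice apart, which leaves 9 genes. Marker genes of other cells are given against this mouse below. The median log2 fold change of the 10 was 1.32, and -0.07 over all tested genes; with library sizes alone as the scaling it was 1.10, and without Hspa1l, whose fitted value depends on the prior count, 1.00. No gene passed the threshold: edgeR's quasi-likelihood test with Benjamini-Hochberg adjustment called 0 of the 10, and 0.0% of all genes. At an unadjusted p under 0.05 edgeR gave 2 of 10 higher, Hsp90aa1 and Hspe1, against 1.75% of all genes, and DESeq2 gave 4, adding Hspa1a and Hspa1b, against 3.61%. Without Eµ-PRMT5/TCL1 mouse 1 edgeR gave 0 of 10 (1.09% of all genes), without Eµ-PRMT5 mouse 4 it gave 4 (3.61%), and in the fit of only these 2 groups 7 of 10 (8.68%). The share over all genes did not always follow the members: it was 1.14% and 1.55% without Eµ-PRMT5/TCL1 mice 2 and 3, with 3 of 10 in each, and 3.16% without Eµ-PRMT5 mouse 1, with 2 of 10.

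Hsp90aa1 averaged 4.13 times the Eµ-TCL1 mouse's level in the Eµ-PRMT5/TCL1 mice and was higher in 3 of 3, a log2 fold change of 2.05 (SE 0.82, unadjusted p = 0.0286, adjusted p = 0.778 by edgeR's quasi-likelihood test with Benjamini-Hochberg adjustment). Hspe1 averaged 3.12 times that level and was higher in 3 of 3, at 1.64 (SE 0.68, unadjusted p = 0.0327, adjusted p = 0.778 by edgeR's quasi-likelihood test with Benjamini-Hochberg adjustment). These were the clearest differences of the 10, and neither passed. Hspa1a gave the largest value, 2.75, with the error of a variable gene (SE 1.34, unadjusted p = 0.0621 from edgeR), and was 1.50 without Eµ-PRMT5/TCL1 mouse 1, which also took Hspa1b to 1.42 and Hsph1 to 0.54. With all mice Hspa1b gave 2.17 (SE 1.24), and Hspa1l, on few counts, 1.98 (SE 1.94). Other members were nearer to 1, at 1.00 for Hsp90ab1 (SE 0.76), 0.97 for Hspa8 (SE 0.80), 0.91 for Hspd1 (SE 0.62) and 0.88 for Hsph1 (SE 1.02). Dnajb1 was the least different, at 0.41 (SE 0.59), or 1.33 times the level of the Eµ-TCL1 mouse.

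Eµ-PRMT5 mice against the same Eµ-TCL1 mouse set the transgenes side by side. This comparison shares that mouse with the one above, so the values of both are given and not counted as separate support. The Eµ-TCL1 mouse was lower than each of 4 Eµ-PRMT5 mice for 5 of the 10 genes (Hspa8, Hsp90aa1, Hsp90ab1, Hspd1 and Hspe1). This held for 17.9% of all tested genes. For Hspa1a, Hspa1b and Dnajb1 only Eµ-PRMT5 mouse 4 was below the Eµ-TCL1 mouse. Again edgeR's quasi-likelihood test with Benjamini-Hochberg adjustment called 0 of the 10, and 0.0% of all genes. At an unadjusted p under 0.05 it gave 2 of 10 higher, Hsp90aa1 and Hspe1, against 1.96% of all genes, and DESeq2 gave 4, adding Hspa1a and Hspa8, against 4.90%. Leaving out Eµ-PRMT5 mouse 2 left Hsp90aa1 alone (1.55% of all genes), and leaving out mouse 3 gave 4 of 10 (3.89%).

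Hsp90aa1 averaged 5.31 times the level of the Eµ-TCL1 mouse and was higher in 4 of 4 mice, a log2 fold change of 2.41 (SE 0.83, unadjusted p = 0.0134, adjusted p = 0.709 by edgeR's quasi-likelihood test with Benjamini-Hochberg adjustment). For Hspe1 the mean was 3.04 times that level, higher in 4 of 4 mice, at 1.60 (SE 0.67, unadjusted p = 0.0331, adjusted p = 0.709 by edgeR's quasi-likelihood test with Benjamini-Hochberg adjustment). The same genes led in the comparison with Eµ-PRMT5/TCL1 mice, which shares the low Eµ-TCL1 value. Log2 fold changes were 2.31 for Hspa1a (SE 1.28), 1.30 for Hspa1b (SE 1.15), 2.07 for Hspa1l (SE 1.91), 1.35 for Hspa8 (SE 0.80), 1.15 for Hsp90ab1 (SE 0.75), 1.18 for Hsph1 (SE 1.02), 0.81 for Dnajb1 (SE 0.59) and 1.10 for Hspd1 (SE 0.62). Without Eµ-PRMT5 mouse 2 the value was 0.43 for Hsph1 and 0.78 for Hspa1b. For Hspa1a, Hspa1b, Hsph1 and Dnajb1 at least 1 Eµ-PRMT5 mouse was below the Eµ-TCL1 mouse, and for Hspa1l counts of 0 and 1 do not order the mice. The median of the 10 was 1.32, against 0.04 over all tested genes, 1.09 with library sizes alone, and 1.30 without Hspa1l.

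Other chaperones were read from 7 lists of 92 genes, of which 86 were tested. In Eµ-PRMT5/TCL1 against Eµ-PRMT5 their median log2 fold change was -0.16, with 20 of 86 above 0, where 40.6% of all tested genes were. Against the Eµ-TCL1 mouse it was 0.43 for Eµ-PRMT5/TCL1 and 0.60 for Eµ-PRMT5 mice, with 67 and 69 of 86 above 0, where 46.6% and 51.9% of all tested genes were. The Eµ-TCL1 mouse was lower than every Eµ-PRMT5/TCL1 mouse for 48 of 86 (55.8%) and than every Eµ-PRMT5 mouse for 35 of 86 (40.7%), against 27.6% and 17.9% of all tested genes. Most chaperones outside the 10 genes thus also had lower values in this mouse, by less. By edgeR with Benjamini-Hochberg adjustment, and by DESeq2, 0 of the 86 passed in any comparison. At an unadjusted p under 0.05 edgeR gave 1 lower, 1 lower, and 3 higher with 2 lower, in the order of the comparisons above, and DESeq2 gave 1 lower, 1 lower, and 13 higher with 2 lower. Of all 13173 genes edgeR had 160, 571 and 635 lower in the same order, so the lower genes are no more than that share would give, and in the last comparison 1.96% higher with edgeR and 4.90% with DESeq2.

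The gene at that threshold between the replicated genotypes was Ptges3. Ptges3, the HSP90 cochaperone p23, measured 637, 278, 103 and 248 CPM in Eµ-PRMT5 mice, against 150.3, 144 and 127 CPM in Eµ-PRMT5/TCL1 mice, with 103 CPM in the Eµ-TCL1 mouse. It gave a log2 fold change of -1.17 (SE 0.51, unadjusted p = 0.0411 by the quasi-likelihood test of edgeR), and the groups overlapped because Eµ-PRMT5 mouse 3 was the lowest of the 7. The value rested in part on Eµ-PRMT5 mouse 1, without which it was -0.57. Against the Eµ-TCL1 mouse the cochaperone Bag4 was lower in Eµ-PRMT5/TCL1 (-1.65) and in Eµ-PRMT5 mice (-1.26) at an unadjusted p under 0.05. In Eµ-PRMT5 mice St13 (1.41), Cacybp (1.28) and Cct8 (1.51) were higher and the small heat shock protein Cryab (-2.38) was lower at that threshold. Bag4, St13, Cacybp, Cct8 and Cryab were named after their values were seen.

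**Figure D4:**
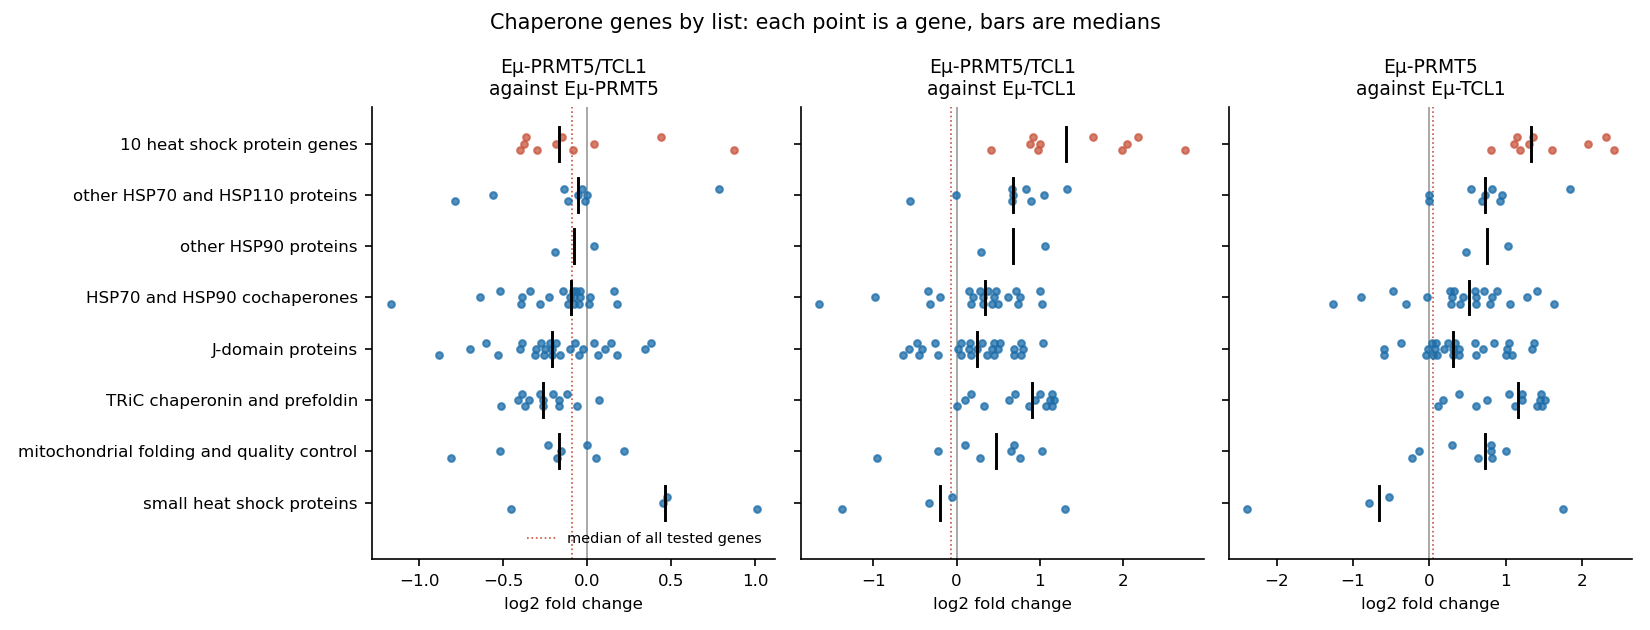
Log2 fold change from edgeR (horizontal axes) of each tested gene of the 10 heat shock protein genes and of 7 other chaperone lists (vertical axis); points are genes, black bars medians and dotted lines the medians of all tested genes. In the middle and right panels the 10 genes have medians of 1.32 and 1.32, and the TRiC and prefoldin genes 0.91 and 1.16.

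The cytosolic chaperonin TRiC and its partner prefoldin, which fold actin and tubulin, came closest to the 10 genes. All 14 were tested, and 14 of 14 had a log2 fold change above 0 against the Eµ-TCL1 mouse in each comparison, with medians of 0.91 and 1.16. That mouse was under each of the Eµ-PRMT5/TCL1 mice for 11 of 14 and under each of the Eµ-PRMT5 mice for 9 of 14. Of all tested genes this held for 27.6% and 17.9%. Their summed level was 3038, 4705, 2868 and 7622 CPM in Eµ-PRMT5 mice, against 3726, 3199.8 and 4147 CPM in Eµ-PRMT5/TCL1 mice, with 1867 CPM in the Eµ-TCL1 mouse. Eµ-PRMT5 mouse 4, the lowest for the inducible HSP70 pair, was thus the highest for this group. Between the replicated genotypes 13 of 14 were not above 0, as were 7823 of all 13173 genes, with a median of -0.27; Cct2 gave -0.41 (SE 0.36) and Pfdn1 -0.51 (SE 0.51), or -0.13 and 0.22 when Eµ-PRMT5 mouse 4 was left out.

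Among the other HSP70 and HSP110 genes 9 of 10 were tested, with medians of -0.06, 0.67 and 0.72 in the comparisons in the order above. Hspa9, the mitochondrial HSP70, gave -0.79 (SE 0.51; -0.37 when Eµ-PRMT5 mouse 4 was left out) between the replicated genotypes and Hspa12a 0.79 (SE 0.63). The organelle HSP90 genes Hsp90b1 and Trap1 gave 0.04 (SE 0.45) and -0.19 (SE 0.35). Of 22 cochaperones the median was -0.09, and Fkbp5 gave -0.64 (SE 0.42). Of 27 J-domain proteins the median was -0.21, with Dnajb9 at -0.70 (SE 0.52) and Dnajc21 at -0.88 (SE 0.63). The 8 mitochondrial folding and quality control genes had a median of -0.17, with Clpp at -0.52 (SE 0.36) and Hscb at -0.81 (SE 0.43). Clpp measured 116, 133, 91.2 and 215 CPM in Eµ-PRMT5 mice. Of 9 small heat shock protein genes only 4 could be tested, with a median of 0.46; Hspb1 gave -0.46 (SE 0.86) and Hspb11 0.45 (SE 0.46). The small heat shock proteins thus had the median farthest from 0 of the 7 lists between the replicated genotypes. This rests on only 4 genes, with means from 4.69 CPM (Hspb6) to 12.6 CPM (Hspb1) over the 8 mice. Hspb6 was at 0.47 (SE 0.59) and Cryab at 1.01 (SE 0.58), and 0 of the 4 had an unadjusted p under 0.05 there with edgeR. Against the Eµ-TCL1 mouse the medians for Eµ-PRMT5/TCL1 and Eµ-PRMT5 mice were 0.35 and 0.52 for cochaperones, 0.25 and 0.31 for J-domain proteins, 0.47 and 0.72 for the mitochondrial list, 0.68 and 0.75 for the organelle HSP90 genes, and -0.20 and -0.66 for small heat shock proteins.

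The main activator of the inducible genes, Hsf1, varied less than its targets. It measured 109, 188, 92.3 and 86.2 CPM in Eµ-PRMT5 mice, against 110.2, 154 and 147 CPM in Eµ-PRMT5/TCL1 mice, with 87.9 CPM in the Eµ-TCL1 mouse. The replicated groups overlapped, and the Eµ-TCL1 mouse was below every Eµ-PRMT5/TCL1 mouse and above Eµ-PRMT5 mouse 4. Hsf1 gave log2 fold changes of 0.20, 0.64 and 0.44 in the comparisons in the same order, and the activity of the protein was not measured. Of the 6 heat shock factor genes and partners listed, 5 were tested, and 0 had an unadjusted p under 0.05 between the replicated genotypes with edgeR or DESeq2. In Eµ-PRMT5 mice against the Eµ-TCL1 mouse Hsf5 was lower (-1.84) at that threshold with edgeR, and DESeq2 gave 0. The median of the 5 was 0.20 between the replicated genotypes, and -0.63 and -0.42 against the Eµ-TCL1 mouse.

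Markers of other cells and genes of the early stress response were read beside the 10 genes, and their part in the differences was not tested. Of 21 immediate early and dissociation stress genes all 21 were tested, with medians of 0.0026, 0.60 and 0.59 in the same order and 0 at an unadjusted p under 0.05 between the replicated genotypes with edgeR or DESeq2. Against the Eµ-TCL1 mouse edgeR gave 0 for Eµ-PRMT5/TCL1 mice at that threshold. For Eµ-PRMT5 mice it gave Dusp1 (1.54), Klf6 (1.69) and Socs3 (1.82) higher and Egr1 (-2.34) lower. DESeq2 gave 3 higher, and 6 higher with 1 lower. Of all tested genes edgeR had 1.75% and 1.96% higher, and DESeq2 3.61% and 4.90%. Their sum was 5393, 5627, 4696 and 3432 CPM in Eµ-PRMT5 mice, against 3214, 4729 and 5718 CPM in Eµ-PRMT5/TCL1 mice, with 4129.8 CPM in the Eµ-TCL1 mouse; Junb was the most abundant gene in 3 of the 8. Eµ-PRMT5/TCL1 mouse 1, the highest for Hspa1a and Hspa1b, was the lowest of the 8 in this sum. Eµ-PRMT5 mouse 4, the lowest of the 8 for Hspa1a, Hspa1b and Dnajb1, was next to the lowest in it.

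B cell markers (11 of 11 tested) summed to 7835, 3815, 6294 and 3151 CPM in Eµ-PRMT5 mice, against 3503, 5020.5 and 7829 CPM in Eµ-PRMT5/TCL1 mice, with 4741 CPM in the Eµ-TCL1 mouse. Cd79a was the most abundant in 7 of the 8 mice, and Blnk in Eµ-PRMT5 mouse 4. Fcer2a was lower in Eµ-PRMT5/TCL1 mice than Eµ-PRMT5 mice at an unadjusted p under 0.05 with edgeR (-2.76, or -2.08 when Eµ-PRMT5 mouse 3 was left out). Eµ-PRMT5 mouse 4, with the lowest Hspa1a and Hspa1b, also had the lowest sum, but Eµ-PRMT5/TCL1 mouse 1, with the highest of both, had the next lowest.

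Neutrophil granule genes (14 of 14 tested) summed to 2830.3, 2357, 499 and 5675 CPM in Eµ-PRMT5 mice, against 9462, 5299.7 and 697 CPM in Eµ-PRMT5/TCL1 mice, with 710.0 CPM in the Eµ-TCL1 mouse. Ngp was the most abundant in 6 of the 8 mice, and Itgam was at 0 in Eµ-PRMT5 mouse 3. Between the replicated genotypes Mpo was higher (2.13) and Mmp8 lower (-2.03) at an unadjusted p under 0.05 with edgeR, where DESeq2 gave 0 higher and 2 lower. Mpo was at 1.08 when Eµ-PRMT5/TCL1 mouse 1 was left out, and Mmp8 at -1.37 when Eµ-PRMT5 mouse 4 was. Eµ-PRMT5/TCL1 mouse 1 thus had the highest sum here and the highest Hspa1a and Hspa1b, while Eµ-PRMT5 mouse 4, next in this sum, had the lowest of both. Macrophage markers (6 of 10 tested) summed to 1194, 1139.9, 1316 and 3834 CPM in Eµ-PRMT5 mice, against 7413, 2799 and 1019 CPM in Eµ-PRMT5/TCL1 mice, with 1098 CPM in the Eµ-TCL1 mouse. Lyz2 was the most abundant in each, and Cd14 was higher in Eµ-PRMT5/TCL1 (2.05) at an unadjusted p under 0.05 with edgeR, or at 0.94 when Eµ-PRMT5/TCL1 mouse 1 was left out. C1qa, C1qb, C1qc and Marco had no value in Eµ-PRMT5 mouse 1, C1qa and Marco none in mouse 2, and Marco none in mouse 3.

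T cell markers (6 of 10 tested, Trac not in the matrix) summed to 636, 564, 1114 and 441 CPM in Eµ-PRMT5 mice, against 727, 1249 and 716 CPM in Eµ-PRMT5/TCL1 mice, with 482 CPM in the Eµ-TCL1 mouse. Cd2 or Lck, which B cells can also express, was the most abundant in each mouse, while Cd3d was between 2.15 and 44.7 CPM; Cd4 had no value in Eµ-PRMT5 mouse 1, Bcl11b in Eµ-PRMT5 mouse 4 and Cd8a in Eµ-PRMT5/TCL1 mouse 3. Cd3d (-2.53) and Cd3e (-1.54) were lower in Eµ-PRMT5/TCL1 mice than Eµ-PRMT5 mice at an unadjusted p under 0.05 with edgeR. They were at -1.37 and -0.66 when Eµ-PRMT5 mouse 3 was left out. Cd2 (0.75) and Lck (0.49) went the other way, Cd2 with every Eµ-PRMT5/TCL1 mouse above every Eµ-PRMT5 mouse. The median of the 6 tested was -0.87, with 2 above 0. NK cell markers (3 of 7 tested) summed to 396 CPM in Eµ-PRMT5 mouse 3, where the other 7 mice had 25.2 to 73.6 CPM, with Nkg7 the most abundant in 5 mice and Prf1 lower in Eµ-PRMT5/TCL1 (-2.50, or -1.32 when Eµ-PRMT5 mouse 3 was left out) at the same threshold. Klrb1c had no value in 1 mouse, Gzma and Klrd1 in 2 each and Gzmb in 3. Erythroid markers (7 of 8 tested) summed to 115, 42.6, 63.8 and 632 CPM in Eµ-PRMT5 mice, against 393, 99.8 and 99.3 CPM in Eµ-PRMT5/TCL1 mice, with 33.3 CPM in the Eµ-TCL1 mouse. Hba-a1 or Car2 was the most abundant, with no value for Alas2 in the Eµ-TCL1 mouse and Eµ-PRMT5 mouse 3, and Klf1 at 0 in Eµ-PRMT5 mouse 1. The Eµ-TCL1 mouse, low for the 10 genes, was thus the lowest of the 8 in erythroid markers and had the smallest library. Against that mouse the median log2 fold changes for Eµ-PRMT5/TCL1 and Eµ-PRMT5 mice were 2.42 and 1.96 for neutrophil granule genes, 1.89 and 2.58 for erythroid, 1.82 and 0.54 for macrophage, 0.08 and 0.70 for B cell, 0.07 and 0.60 for T cell and -1.13 and 1.13 for NK cell markers. That mouse was under each Eµ-PRMT5/TCL1 mouse for 6 of 14 neutrophil, 5 of 7 erythroid and 3 of 6 macrophage genes. It was under each Eµ-PRMT5 mouse for 1 of 14, 2 of 7 and 2 of 6. Of all tested genes these held for 27.6% and 17.9%. At an unadjusted p under 0.05 DESeq2 gave 7 of 14, 3 of 7 and 3 of 6 higher in Eµ-PRMT5/TCL1, against 3.61% of all tested genes. There edgeR gave 2, 1 and 1, against 1.75%.

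Of 9916 other genes compared, the 10 whose log2 CPM over the 8 mice correlated most with the summed inducible pair were Tubb2b (Pearson r = 0.926, Spearman rho = 0.905), Cdh17, H2-Ab1, Il2ra, Ovca2, Tjap1, Tmem63b, Ap5b1, Cklf and Micall1 (r = 0.866, rho = 0.690). Without the 2 farthest mice on that scale (Eµ-PRMT5/TCL1 mouse 1 and mouse 4 of Eµ-PRMT5) r was 0.904 for Tubb2b, 0.956 for Micall1 and, the lowest of the 10, 0.627 for Cdh17. No chaperone was among them. These are descriptions over 8 points, picked as the highest of 9916 and given no p.

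The 10 most like the summed Hspd1 and Hspe1 were Idi1 (r = 0.966, rho = 1.00), Hspa5 (r = 0.957, rho = 0.952), Mrps6, Dhps, Zbed5, Gtf2f2, Pfdn2 (r = 0.942), Nom1, Rae1 and Dnaja2 (r = 0.939, rho = 0.929), again over 8 mice. Without the Eµ-TCL1 mouse and Eµ-PRMT5 mouse 2 r was 0.921 for Idi1, 0.940 for Hspa5 and 0.795 for Dnaja2. Hspa5, the HSP70 of the endoplasmic reticulum, Pfdn2 of prefoldin and the J-domain protein Dnaja2 belong to the chaperone lists. Hspa5 measured 1686, 4244, 1261 and 2826 CPM in Eµ-PRMT5 mice, against 2731, 2376 and 2233 CPM in Eµ-PRMT5/TCL1 mice, with 1318 CPM in the Eµ-TCL1 mouse, and so was highest in Eµ-PRMT5 mouse 2, as Hspd1 and Hspe1 were. The median r with the summed Hspd1 and Hspe1 was 0.714 over TRiC and prefoldin genes and 0.0669 over all genes compared, but also 0.554 over neutrophil granule genes, 0.344 over erythroid and -0.317 over B cell markers. With the inducible pair the medians over TRiC and prefoldin and over all genes were -0.172 and -0.0296, with 0.373 over the 2 heat shock factor genes compared, 0.296 over B cell markers and 0.237 over the immediate early and stress genes, so the mitochondrial pair and the inducible pair had different companions over the same mice.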

How the data were processed

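Raw counts by gene symbol for splenic B cells of 8 mice are as the authors deposited them. Their methods for these samples describe low-input cDNA without naming aligner or annotation; the labels give the kit of another assay of the study, whose methods name both, and list GRCm38 and featureCounts. Which applies, the use of strand and the meaning of NA are not stated. NA (36919 cells) was not read as 0, and 14072 symbols had a value in every library. The test was edgeR 4.0.16 in R 4.3.3 (TMM, filter by group, 1 quasi-likelihood model over 3 labelled genotypes, Benjamini-Hochberg adjustment over 13173 genes) with the study's thresholds (adjusted p below 0.05, more than 4-fold). The common biological coefficient of variation was 0.483. This test returns no SE, so each SE given is the absolute log2 fold change divided by the square root of the test's F statistic. The code was tested on simulated data. Alternatives were DESeq2 1.42.0, no filter, 10 or more counts in every sample, scaling by library size or upper quartile, a fit of only the 2 groups compared, NA counted as 0, Hspa1a and Hspa1b summed, a replicate block and each mouse left out. Named are all 10 members; from other lists, genes at an unadjusted p under 0.05 in Eµ-PRMT5/TCL1 against Eµ-PRMT5 and the 2 largest differences per chaperone list at a mean of 10 CPM or more; and the 10 genes most alike by correlation. Members and lists were chosen with earlier results of these data known; after the analysis 3 genes were dropped from the planned lists. Promoters are from RefSeq (GRCm38.p6) and positions from GENCODE vM21, read with Python 3.11.15, pandas 2.3.3, numpy 2.4.6, scipy 1.17.1 and matplotlib 3.10.9.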

Additional observations from a re-analysis of the deposited data

Results flagged for a closer look

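A value was singled out where the highest or lowest of the 4 Eµ-PRMT5 mice lay far from the other 3. The measure was its gap to the nearest of them, as a share of the group's range. The cut on that share was set so that chance passes it for 5% of values. Of 29 values examined 4 passed the cut, each with a gap of at least 0.878 of the range, where chance gives 1.45. None of the 10 heat shock protein genes was among them. The nearest was Hspe1, whose highest mouse, number 2, had a gap of 0.814 of the range, short of the cut. Gaps of 0.685 for Hsp90ab1 (mouse 3) and 0.586 for Hspa8 (mouse 2) also fell short. HSP70 and HSP90 cochaperones summed to 2215 CPM in Eµ-PRMT5 mouse 3, below the other 3 (gap 0.975 of the range). NK cell markers summed to 396 CPM in Eµ-PRMT5 mouse 3, above the other 3 (gap 0.939). Macrophage markers summed to 3834 CPM in Eµ-PRMT5 mouse 4 (gap 0.935) and erythroid markers to 632 CPM in the same mouse (gap 0.878), both above the other 3. The part of these in the levels of the 10 genes was not tested.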

How the results depend on the processing

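None of the 10 genes passed the threshold in any of 17 alternatives for Eµ-PRMT5/TCL1 against Eµ-PRMT5, or of 15 for each comparison with the Eµ-TCL1 mouse; the smallest adjusted p of a member by edgeR or DESeq2 was 0.774, 0.174 and 0.141. Of the members' log2 fold changes 449 kept their direction and 17 reversed, all in Eµ-PRMT5/TCL1 against Eµ-PRMT5; the cause was not tested. In that comparison the fit of only its groups and the fit without the Eµ-TCL1 mouse are the same fit, counted in both places. With each mouse left out in turn, values there ran from -0.80 (without Eµ-PRMT5/TCL1 mouse 1) to 0.85 for Hspa1a, from -0.47 to 0.30 (without Eµ-PRMT5 mouse 4) for Hspa1l, and, with the highest without Eµ-PRMT5 mouse 2, from -0.57 to 0.064 for Hspa8, from -0.64 to 0.45 for Hsph1, from -0.37 to 0.089 for Hspd1 and from -0.22 to 0.44 for Hspe1. They ran from -0.63 to 0.036 (without Eµ-PRMT5 mouse 1) for Hsp90aa1 and from -0.39 to 0.025 (without Eµ-PRMT5/TCL1 mouse 2) for Hsp90ab1. Against the Eµ-TCL1 mouse no direction reversed; values ran from 1.50 to 3.12 for Hspa1a, from 1.42 to 2.49 for Hspa1b and from 0.54 to 1.15 for Hsph1 in Eµ-PRMT5/TCL1 (lowest without its mouse 1), and from 0.78 to 1.67 for Hspa1b and from 0.43 to 1.48 for Hsph1 in Eµ-PRMT5 (lowest without its mouse 2). Without Eµ-PRMT5 mouse 4, members with every Eµ-PRMT5/TCL1 mouse lower numbered 1 in place of 0. Members with every Eµ-PRMT5 mouse above the Eµ-TCL1 mouse then numbered 8 in place of 5. No share of all tested genes without mouse 4 is given for either count, so both only describe the members.

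With the replicate numbers of the labels as a block, values were -0.31 for Hspa1a, 0.018 for Hsp90ab1 and 0.051 for Hspd1. The pairing rests on numbers alone: mice with the same number correlated at -0.02, 0.15 and 0.16 in their deviations. DESeq2 called 3 genes higher and 1 lower in Eµ-PRMT5/TCL1 against Eµ-PRMT5, 9 and 7 against the Eµ-TCL1 mouse, and 4 and 14 in Eµ-PRMT5 against it, where edgeR called 0 in each; the cause was not tested. Scaling by library size alone moved the median of all genes by -0.23 and -0.25 in the comparisons with the Eµ-TCL1 mouse. It left only Hsp90aa1 of the members higher at an unadjusted p under 0.05 in each, against 1.04% and 0.97% of all genes. Upper-quartile scaling moved the median by -0.16 for Eµ-PRMT5. Hspa1l had no value with at least 10 counts in every sample or with the block.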
